A study of Mus musculus with 2 samples.

Results

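Mir208a, Mir208b and Mir499 are microRNA (miRNA) genes that lie inside introns of myosin heavy chain genes, and their small RNAs were measured here in the mouse limb at embryonic day 15.5. The members were taken by name as the rows of Mir208a, in Myh6, Mir208b, in Myh7, and Mir499, in Myh7b. All 3 had a row, among 1973 miRNA genes in all. The limbs came from mouse embryos of strain B6NCrl, and the libraries held small RNA under 30 nt prepared from total RNA. The series held 1 group with 2 biological replicates, and no treatment, allele, second tissue or second stage was compared. Replicate 1 was a pool of limbs from 78 embryos and replicate 2 a pool from 62 embryos, male and female together in both. A limb at this stage is a mixture of muscle, cartilage, skin, vessels and nerve, so a level is an average over the pool.

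A miRNA is cut from a hairpin in its primary transcript and guides silencing proteins to messenger RNAs that pair with its seed, the bases near its 5′ end. Myosin heavy chains are the motor proteins of the sarcomere. Because these 3 miRNAs are transcribed with their hosts, they are known as markers of the fibres that use those myosins. Myh6 encodes the alpha-cardiac heavy chain and its miRNA Mir208a is known mainly from heart. Myh7 encodes the slow, beta-cardiac heavy chain of slow skeletal fibres and of the heart. Myh7b is an older relative whose transcript, in mammalian skeletal muscle, is spliced largely without giving protein while still giving miR-499. In mice, miR-208b and miR-499 are known to favour the slow fibre program by repressing messenger RNAs of factors such as Sox6.

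The 3 genes carry nearly the same seed, which is the reason their mature sequences are shown here. The arms known as the guides are given from 5′ to 3′, as RefSeq gives them for GRCm38.p6, with the seed (bases 2 to 8) in capitals.
mmu-miR-208a-3p: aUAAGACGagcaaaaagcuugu
mmu-miR-208b-3p: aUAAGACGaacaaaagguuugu
mmu-miR-499-5p: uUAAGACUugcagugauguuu
The miR-208a and miR-208b seeds are identical, and no other miRNA among 1738 RefSeq mature sequences has that seed. The miR-499 seed matches them over bases 2 to 7 and departs at base 8 (G8U, written as the miR-208a base, its position from the 5′ end and the miR-499 base). No other mature sequence among the 1738 shares bases 2 to 7. Over their whole length, miR-208a-3p and miR-208b-3p differ at 3 of 22 positions, all beyond the seed (G10A, A16G and C18U, the miR-208a base first), while miR-208a-3p and miR-499-5p differ at 9 of the 21 positions compared, base 8 of the seed among them.

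The guide lies on the 3′ side of the hairpin in Mir208a and Mir208b and on the 5′ side in Mir499. The hairpins are shown to make that difference visible, with both mature arms in capitals.
Mir208a hairpin: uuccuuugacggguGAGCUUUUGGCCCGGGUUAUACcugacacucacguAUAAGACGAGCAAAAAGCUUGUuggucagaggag
Mir208b hairpin: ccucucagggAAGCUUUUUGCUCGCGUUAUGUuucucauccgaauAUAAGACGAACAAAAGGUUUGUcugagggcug
Mir499 hairpin: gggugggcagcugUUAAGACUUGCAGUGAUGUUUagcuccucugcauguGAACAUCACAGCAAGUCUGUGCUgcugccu
Aligned end to end, the Mir208a and Mir208b hairpins were identical at 66.7% of alignment columns, against 48.5% for Mir208a with Mir499 and 60% for Mir208b with Mir499. The deposited counts are per hairpin gene, so reads of the arms were summed and were not told apart. Reads with several alignments enter no gene in these tables. No stretch of 20 bases of the 3 hairpins occurred in any other of the 1005 RefSeq hairpins, and each mature sequence was found exactly in the transcripts of 1 annotated gene, its own.

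All 3 genes are purely intronic and are transcribed in the direction of their hosts. On mm10, Mir208a (ENSMUSG00000065432.1) spans 54949060 to 54949142 on chromosome 14, minus strand, in intron 29 of the 38 introns of transcript Myh6-201. Mir208b (ENSMUSG00000077928.1) spans 54975700 to 54975776 on the same strand, in intron 31 of the 40 introns of Myh7-201. In both hosts 9 introns follow. The host genes are neighbours, 3.76 kb apart, and the hairpins are 26.6 kb apart. Mir499 (ENSMUSG00000076312.1) spans 155622880 to 155622958 on chromosome 2, plus strand, in intron 19 of the 41 introns of Myh7b-201. The introns are 542, 461 and 481 bases long for Mir208a, Mir208b and Mir499. No annotated exon overlaps any of the 3 genes on their strand, and no gene is annotated opposite them.

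**Figure D1:**
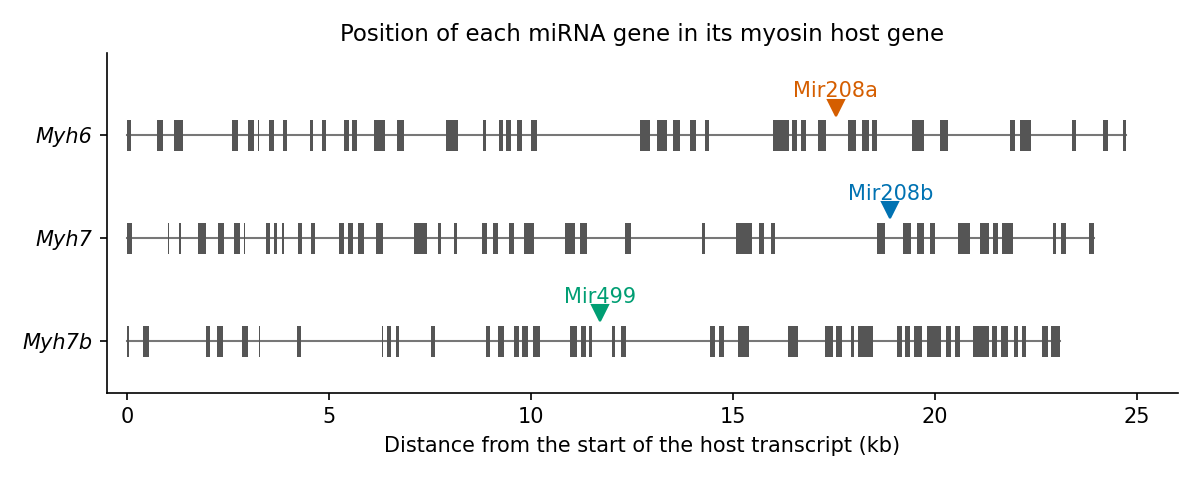
Exons (dark boxes, to scale) and introns (lines) of the 3 myosin host transcripts against distance from the transcript start in kb, with a triangle over each miRNA gene. Mir208a and Mir208b sit late in Myh6 and Myh7, with 9 introns after them, and Mir499 sits near the middle of Myh7b, in intron 19 of 41.

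Levels are sense counts divided by the sense total over all miRNA genes of the library and multiplied by 1000000 (CPM). The totals were 4263630 sense counts in replicate 1 and 5151214 in replicate 2. Each read stands for 1 small RNA of nearly the same length, so no scaling by length was made. Equal capture of unlike sequences in library preparation was not tested. Genes with 10 or more sense counts in each library, 340 in all, are called detected, and the 3 members are among them. Intervals for single libraries are Wilson 95% intervals, and they cover counting error only.

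Mir499 was the most abundant of the 3. It had 1049 sense counts in replicate 1 and 462 in replicate 2. Its level was 246 CPM in replicate 1 (interval 232 to 261) and 89.7 CPM in replicate 2 (81.9 to 98.2), with a mean of 168 ± 111 CPM (SD, n = 2). By mean CPM it ranked 170 of 1973 genes. In the pool of 78 embryos it ranked 152, and in the pool of 62 embryos 191. In these pools fewer cells of a type and less RNA per cell cannot be told apart.

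Mir208b, the miRNA of the slow myosin gene, had 718 sense counts in replicate 1 and 344 in replicate 2. Its level was 168 CPM in replicate 1 (interval 157 to 181) and 66.8 CPM in replicate 2 (60.1 to 74.2), with a mean of 118 ± 71.9 CPM (SD, n = 2). It ranked 185 by mean CPM. Like Mir499, it was higher in the larger pool, and the intervals of the libraries lay far apart.

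Mir208a, the miRNA of the alpha-cardiac myosin gene, was near the lower end of what was detected. It had 34 sense counts in replicate 1 and 12 in replicate 2. Its level was 7.97 CPM in replicate 1 (interval 5.71 to 11.1) and 2.33 CPM in replicate 2 (1.33 to 4.07), with a mean of 5.15 ± 3.99 CPM (SD, n = 2). Both values lay above the upper limit that a count of 0 allows, 0.704 CPM in replicate 1 and 0.582 CPM in replicate 2 (3 counts per library). It ranked 303 by mean CPM. No antisense count fell on any of the 3 genes in either library, which allows up to 3 counts each.

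**Figure D2:**
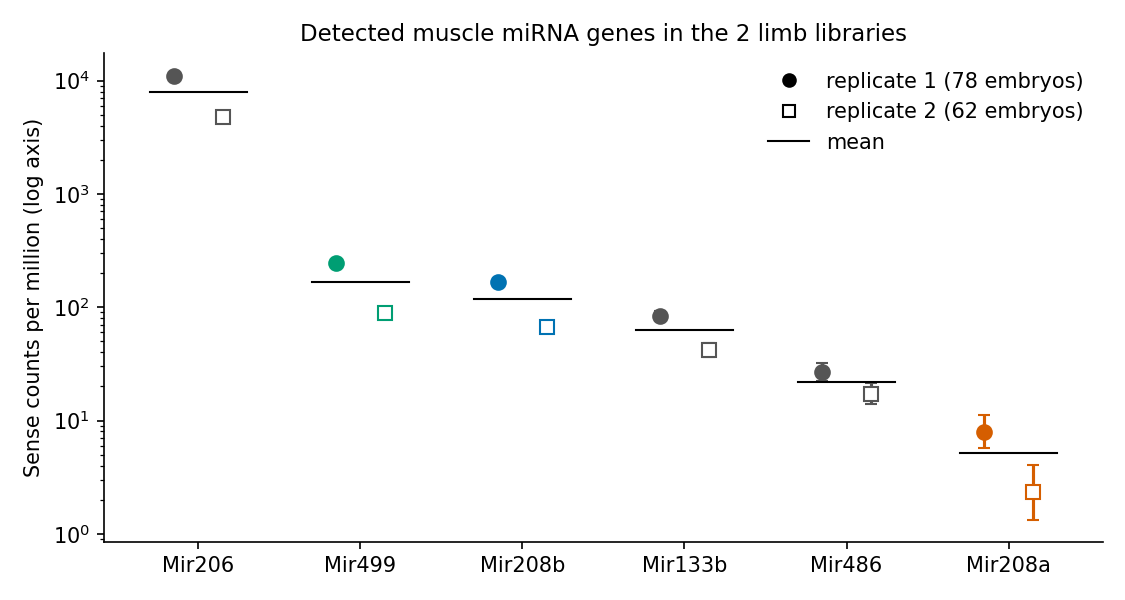
Sense CPM (log axis) of the 6 detected muscle miRNA genes in replicate 1 (filled circles) and replicate 2 (open squares), with Wilson 95% intervals and the mean of both libraries as a line. Replicate 1 lies above replicate 2 for each of the 6 genes, and Mir208a lies lowest with 7.97 and 2.33 CPM.

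The order Mir499, Mir208b, Mir208a was the same in both libraries. The means of Mir499 and Mir208b differed by less than the SD of either, as both genes were higher in replicate 1. Within a library, where the total cancels, Mir499 had 1.46 times the counts of Mir208b in replicate 1 (95% interval 1.33 to 1.61) and 1.34 times in replicate 2 (1.17 to 1.55). Both intervals lay above 1, and they overlapped each other. These intervals come from the exact Clopper-Pearson interval of the pair's share. Mir208b had 21.1 times the counts of Mir208a in replicate 1 (14.97 to 30.7) and 28.7 times in replicate 2 (16.2 to 56.0). Mir499 had 30.9 times the counts of Mir208a in replicate 1 (21.9 to 44.8) and 38.5 times in replicate 2 (21.8 to 75.1). The genes of the neighbouring hosts Myh6 and Myh7 were thus further apart in level than the genes of Myh7 and Myh7b, which lie on different chromosomes.

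The 3 genes together had 422 CPM in replicate 1 and 159 CPM in replicate 2, a mean of 291 ± 186 CPM (SD, n = 2). The sum was 2.66-fold higher in replicate 1. Mir499 made up 58.2% of the summed counts in replicate 1 (exact 95% interval 55.9 to 60.5) and 56.5% in replicate 2 (53.0 to 59.9). Mir208b made up 39.9% in replicate 1 (37.6 to 42.2) and 42.1% in replicate 2 (38.6 to 45.5). Mir208a made up 1.89% in replicate 1 (1.31 to 2.63) and 1.47% in replicate 2 (0.760 to 2.55). For each gene the intervals of the libraries overlapped, so a change in composition was not detectable at this depth.

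**Figure D3:**
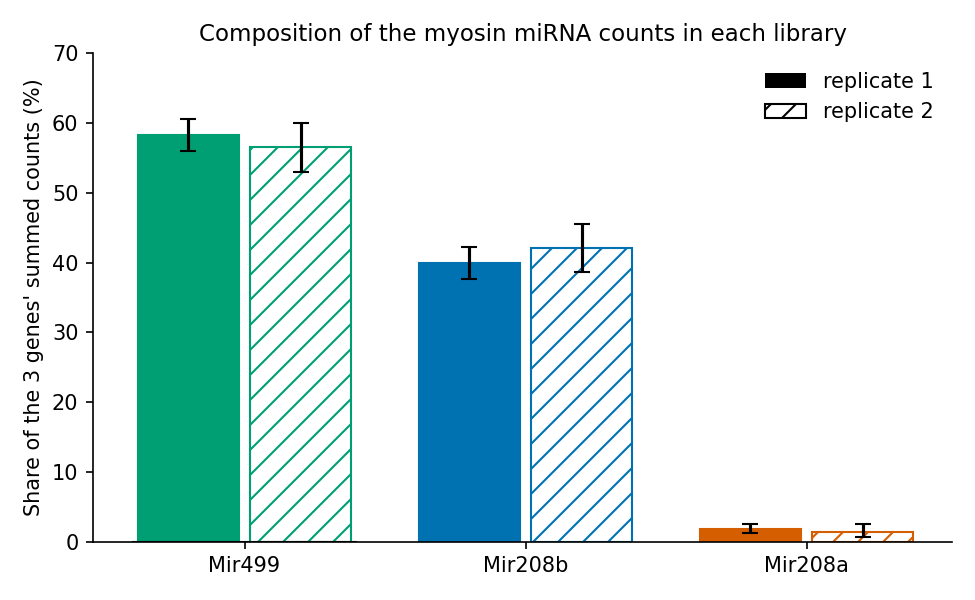
Share of the summed counts of Mir499, Mir208b and Mir208a held by each gene, in percent, in replicate 1 (filled bars) and replicate 2 (hatched bars), with exact 95% intervals. The intervals of each gene overlap between the libraries, with 58.2% and 56.5% for Mir499.

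Among the detected miRNA genes these 3 had the largest ratios between the pools. Mir208a, Mir499 and Mir208b held the ranks 1, 2 and 3 of 340 by the log2 ratio of CPM in replicate 1 over replicate 2. The ratio was 2.74-fold for Mir499 (95% interval 2.46 to 3.07) and 2.52-fold for Mir208b (2.21 to 2.88). It was 3.42-fold for Mir208a, with a wide interval of 1.73 to 7.26. The intervals of the 3 members overlapped one another. On the log2 scale the values were 1.78 for Mir208a, 1.46 for Mir499 and 1.33 for Mir208b. Over all 340 detected genes the median log2 ratio was -0.02, with a range from the 2.5 to the 97.5 percentile of -0.62 to 0.88.

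To set the ratios against counting noise, an exact conditional binomial test (two-sided) was run on every detected gene, with Benjamini-Hochberg adjustment over the 340 genes and a threshold of 0.05. All 3 members passed as higher in replicate 1, with adjusted p = 1.09e-78 for Mir499, 1.29e-47 for Mir208b and 0.000376 for Mir208a (exact binomial test). Of the 340 genes 87 (25.6%) passed as higher in replicate 1 and 86 (25.3%) as lower. Those that passed as over 2-fold higher in replicate 1 were 7 (2.06%), the 3 members among them. Mir215 passed as over 2-fold lower, with a CPM ratio of 0.428. In both directions together 50.9% of genes passed, so passing the test is common at this depth, while a ratio over 2-fold is not. Among the 70 detected genes with 20 to 100 sense counts over both libraries, a window chosen after the values of Mir208a were seen, 4 (5.71%) passed, namely Mir208a, Mir1188, Mir6240 and Mir215. The test sets 2 pools against counting noise and compares no conditions. For each member the SD above, from n = 2, is the only estimate of its own spread between pools.

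**Figure D4:**
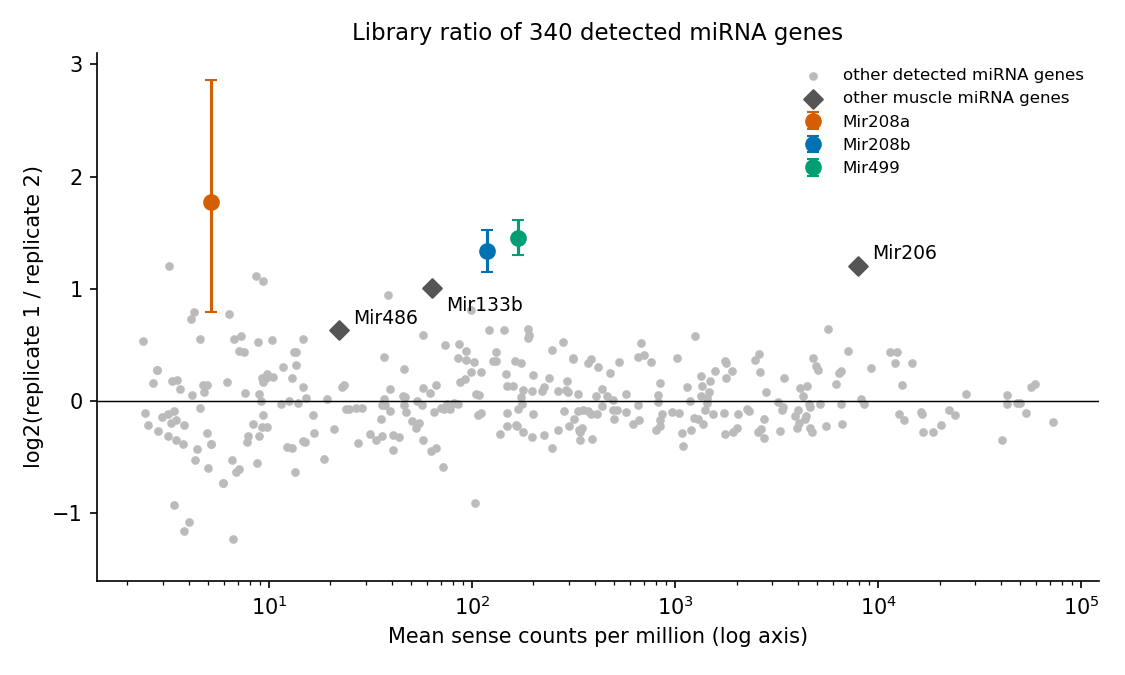
Log2 ratio of replicate 1 over replicate 2 against mean sense CPM (log axis) for the 340 detected miRNA genes, with Mir208a, Mir208b and Mir499 in colour (bars are exact 95% intervals) and other detected muscle genes as diamonds. The 3 coloured points lie at 1.78, 1.33 and 1.46, above all other detected genes, and the bar of Mir208a is the widest.

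Beside the 3 members, Mir206, Mir133b and Mir486 of the muscle list passed as higher in replicate 1. The list held 12 names with the members, of which 10 matched a row and Mir1a-2 and Mir486b did not. Of the 7 matched genes that are not members 3 were detected, and these 3 passed, with a median log2 ratio of 1.01, against -0.02 over all detected genes. With the members 6 of 10 were detected, all 6 passed as higher in replicate 1, and the median was 1.27. Of all 1973 genes 340 were detected, and 25.6% of these passed as higher in replicate 1. The list was chosen with earlier results of these data known. Mir206, a skeletal muscle miRNA induced by MyoD, had 11050 CPM in replicate 1 and 4787 CPM in replicate 2, a 2.31-fold ratio (95% interval 2.27 to 2.34). This interval lies below that of Mir499 and overlaps those of Mir208b and Mir208a. Mir133b, from the same genomic cluster as Mir206, had 84.2 CPM in replicate 1 and 41.9 CPM in replicate 2, a 2.01-fold ratio (1.69 to 2.39). Mir486, in an intron of the ankyrin gene Ank1 and known from muscle and from red blood cells, had 26.7 CPM in replicate 1 and 17.3 CPM in replicate 2, a 1.55-fold ratio (1.16 to 2.07). Mir486 also had 12 antisense counts in replicate 1 and 10 in replicate 2. The undetected genes were Mir1b with 3 sense counts in replicate 1 and 4 in replicate 2, Mir1a-1 with 1 in each, Mir133a-2 with 0 in replicate 1 and 1 in replicate 2, and Mir133a-1 with 0 in both. For the copies of miR-1 and miR-133a, reads that align to several copies are in no count.

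The myosin miRNAs were a small part of the counted reads of the muscle list, which Mir206 dominated. Reads that align to several copies of miR-1 or miR-133a are in no count. The shares are therefore not the make-up of all muscle miRNA. They made up 3.65% of the list's counts in replicate 1 (exact 95% interval 3.48 to 3.82) and 3.17% in replicate 2 (2.96 to 3.39), and these intervals did not overlap. Within a library, Mir206 had 44.9 times the counts of Mir499 in replicate 1 (42.2 to 47.8) and 53.4 times in replicate 2 (48.7 to 58.6). Set against Mir208b, Mir206 had 65.6 times the counts in replicate 1 (61.0 to 70.7) and 71.7 times in replicate 2 (64.4 to 80.0), with overlapping intervals. Against Mir208a the intervals of Mir206 overlapped too, with 1386 times the counts in replicate 1 (992 to 2001) and 2055 times in replicate 2 (1176 to 3977). Mir133b had 0.342 times the counts of Mir499 in replicate 1 (0.303 to 0.386) and 0.468 times in replicate 2 (0.396 to 0.551). The intervals of Mir133b overlapped against Mir208b, with 0.500 times the counts in replicate 1 (0.439 to 0.568) and 0.628 times in replicate 2 (0.527 to 0.747). They also overlapped against Mir208a, with 10.6 times the counts in replicate 1 (7.42 to 15.5) and 18.0 times in replicate 2 (10.1 to 35.4). Relative to Mir206 and to Mir133b, Mir499 was thus higher in replicate 1 by more than counting error, a difference between 2 single pools.

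The genes most like the members in their library ratio were ranked by the absolute difference of their log2 ratio from the members' median of 1.46, over 2 libraries. The 5 nearest were Mir206 (difference 0.25), Mir378b (0.26), Mir1188 (0.35), Mir6240 (0.38) and Mir133b (0.45). Few counts lay behind 3 of them. Mir378b had 19 sense counts in replicate 1 and 10 in replicate 2 and did not pass the test (adjusted p = 0.0729, exact binomial test). Mir1188 had 50 in replicate 1 and 28 in replicate 2, and Mir6240 had 54 in replicate 1 and 31 in replicate 2.

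Other genes picked by symbol for the sarcomere and its calcium release held few counts at their own annotated miRNA genes. The symbols used for myosins also take in some genes that are not of the sarcomere. In 61 genes of myosins, troponins, tropomyosins, titin and related proteins, the annotation places 5 miRNA genes of the tables on the host's strand, the 3 members and 2 others. Mir6923, in the embryonic myosin gene Myh3, had 14 sense counts in replicate 1 and 1 in replicate 2, a CPM ratio of 16.9 with a 95% counting interval of 2.57 to 715. Mir1963, in the ryanodine receptor gene Ryr1, had 1 count in replicate 1 and 0 in replicate 2. Neither reached 10 counts in both libraries, so neither was tested.

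The other detected intronic miRNA genes lay below the members in ratio, as every other detected gene did. Of 123 other detected miRNA genes placed in introns of protein-coding genes on the same strand, 18 (14.6%) passed as higher in replicate 1 and 44 (35.8%) as lower, beside 25.6% and 25.3% of all detected genes. Their median log2 ratio was -0.11, and the values ran from -0.90 to 0.63. The highest of them was Mir486 at 0.63.

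Summed by tissue, markers of other tissues differed less between the pools. Over 8 marker lists outside striated muscle, the summed CPM of replicate 1 over replicate 2 ran from 0.766 for liver to 1.24 for neuron. The neuronal markers, 9 of 11 of which had a row, summed to 538 CPM in replicate 1 and 435 CPM in replicate 2, with Mir9-2, Mir124a-1 and Mir124a-3 at 0 counts in both. Of the 5 detected neuronal markers 2 were higher in replicate 1, both of which passed, and 3 were lower, of which 1 passed. Their median log2 ratio was -0.22, so the sum and the median differ in sign. The erythroid markers Mir451a and Mir144 summed to 424 CPM in replicate 1 and 411 CPM in replicate 2. The 7 epidermal markers summed to 96249 CPM in replicate 1 and 108393 CPM in replicate 2, with all 7 passing as lower in replicate 1. The 2 cartilage markers summed to 47612 CPM in replicate 1 and 45564 CPM in replicate 2, and both passed as higher in replicate 1, with log2 ratios of 0.05 and 0.21. Of 5 detected smooth muscle and fibroblast markers 2 passed as higher in replicate 1 and 2 as lower, so their sum hides opposite directions. Passing as lower were also 2 of 3 detected liver markers, 1 of 3 detected leukocyte markers and the 1 endothelial marker. Over all detected genes 25.6% passed as higher in replicate 1 and 25.3% as lower. The part of any of these markers in the ratios of the members was not tested. Unmapped reads made up 19.7% of replicate 1 and 18.8% of replicate 2, and reads with several alignments 29.4% and 29.7%.

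The promoters of the 3 host genes are shown for reference. Host transcripts were not measured here, and a part of these sequences in the library ratios was not tested. Each window is 300 bases from RefSeq (GRCm38.p6), 250 before and 50 after an annotated start, on the strand of the gene. Of 2 windows for Myh7 the one nearer to the start of Myh7-201 is given. Capitals mark matches, on either strand, to the E-box (CANNTG), the MCAT element (CATTCC), the TATA box (TATAAA) and the MEF2 site.
Myh6 promoter, chr14:54966558-54966857, minus strand: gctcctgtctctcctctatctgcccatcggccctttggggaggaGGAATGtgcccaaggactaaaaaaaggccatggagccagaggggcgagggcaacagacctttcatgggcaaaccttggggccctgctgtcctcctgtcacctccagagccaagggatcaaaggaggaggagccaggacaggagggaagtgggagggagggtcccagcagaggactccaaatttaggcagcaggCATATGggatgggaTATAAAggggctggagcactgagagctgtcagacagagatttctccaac
Myh7 promoter, chr14:54994577-54994876, minus strand: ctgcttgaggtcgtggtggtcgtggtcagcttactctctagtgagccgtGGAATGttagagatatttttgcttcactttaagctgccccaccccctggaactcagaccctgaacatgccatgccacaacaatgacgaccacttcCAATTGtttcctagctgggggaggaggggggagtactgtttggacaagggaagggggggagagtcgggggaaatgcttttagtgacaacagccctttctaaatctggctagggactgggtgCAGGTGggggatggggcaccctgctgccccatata
Myh7b promoter, chr2:155610993-155611292, plus strand: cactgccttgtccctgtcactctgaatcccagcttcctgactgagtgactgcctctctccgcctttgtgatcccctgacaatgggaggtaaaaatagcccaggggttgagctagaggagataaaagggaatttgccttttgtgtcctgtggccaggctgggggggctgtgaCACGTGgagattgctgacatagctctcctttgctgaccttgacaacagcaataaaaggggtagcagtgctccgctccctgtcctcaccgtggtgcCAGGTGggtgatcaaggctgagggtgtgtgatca
Myh6 held 1 E-box, 1 MCAT element and 1 match to the TATA letters, which begins 1 base after the annotated start. Myh7 held 2 E-boxes and 1 MCAT element, and Myh7b held 2 E-boxes. The E-box of Myh6 begins 13 bases before the annotated start. Those of Myh7 begin 106 bases before and 15 after it, and those of Myh7b 79 bases before and 16 after it. None of the 3 windows held a MEF2 match. The MCAT matches, read on the other strand in both, begin 206 bases before the annotated start in Myh6 and 201 bases before it in Myh7. The matches did not overlap one another. In the other Myh7 window, whose start lies 77 bases from that of Myh7-201, 2 E-boxes and no MCAT element matched. The MCAT match of Myh7 and its position thus depend on the start chosen. The annotated starts used for Myh6 and Myh7b lie 34 bases from that of Myh6-201 and 31 bases from that of Myh7b-201. Of 32544 distinct windows of this length 72.3% held an E-box, 14.6% the MCAT letters, 13.6% the TATA letters and 3.16% a MEF2 match. A match only states that the letters occur in the window, and no measurement here bears on binding.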

How the data were processed

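MicroRNA-seq of 2 replicate limb pools was analysed. Per the deposited README, the authors counted alignments on mm10 with annotation M4. The aligner and counter are not given in the sources used here. The deposited counts are whole numbers per miRNA gene, not normalized. Their columns have no header. From the values, the first is the sum of the other columns for every gene, and these were taken as sense and antisense counts. The summary lines (unmapped, several alignments, no feature, ambiguous) entered no total. Their share of all reads was 51.9% in replicate 1 and 51.0% in replicate 2.

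Identifiers were matched without version to GENCODE M21 on the same assembly (1894 of 1973). Sequences came from RefSeq tables for GRCm38.p6. Counts were scaled to CPM by sense totals. With 1 group, no quasi-likelihood test could be made, and the exact conditional binomial test was used (scipy 1.17.1, Python 3.11.15). It was tried on simulated counts with counting noise only. That simulation holds no spread between pools, so it cannot show how the test behaves with such spread. Library sizes from edgeR 4.0.16 (TMM) and size factors from DESeq2 1.42.0 in R 4.3.3 were alternatives, beside all reads as total, totals without the muscle list, counts of both strands and other count minimums. The members and lists were chosen with earlier results of these data known. Named genes are the members, the muscle list, the 5 genes nearest in ratio, neighbours in level and genes sharing a seed. They also include miRNA genes in genes picked by symbol for the sarcomere. No source used here names molecular identifiers, and intervals and tests cover counting error.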

Additional observations from a re-analysis of the deposited data

How the results depend on the processing

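Every alternative kept the direction and the side of the threshold of the 3 log2 ratios. Over 8 settings of scaling, strand and count minimum the log2 ratio of replicate 1 over replicate 2 was 1.42 to 1.48 for Mir499 and 1.30 to 1.35 for Mir208b. Over 7 settings it was 1.74 to 1.80 for Mir208a, with adjusted p from 0.000221 to 0.000768 (exact binomial test). With at least 100 counts in both replicates Mir208a had no value. The number of genes that differed between the libraries was 167 to 184, but their share of the tested genes depended on the count minimum. It was 24.6% of 694 genes with no count minimum and 67.6% of 247 genes with at least 100 counts in both replicates. Levels rest on the library chosen: replicate 1 alone gave 246, 168 and 7.97 CPM for Mir499, Mir208b and Mir208a, and replicate 2 alone 89.7, 66.8 and 2.33 CPM. They also rest on the total: over all reads, the mean CPM fell to 78.4, 54.9 and 2.40, from 168, 118 and 5.15. These shifts were under 1 SD, but that SD is the spread between pools and does not measure the effect of the total. No paired analysis was possible because the series holds 1 group. For Mir208a depth is the limit, with 34 counts in replicate 1 and 12 in replicate 2. The SD over n = 2 is itself imprecise.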

Other observations

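Mir499 stood by mean level between Mir132, a neuronal and vascular miRNA, with 168 ± 5.97 CPM, and Mir148b with 166 ± 18.3 CPM (SD, n = 2). Mir208b stood between Mir128-2, in an intron of Arpp21, with 121 ± 36.7 CPM and Mir874 with 110 ± 5.72 CPM. Mir208a stood between Gm23450 with 5.92 ± 2.07 CPM and Mir547 with 5.14 ± 0.967 CPM. The SD of each member was larger than those of both its neighbours. Each member ranked above its neighbours in replicate 1 and below them in replicate 2. Since neighbours have nearly the same mean, both statements restate the large library ratios of the members and are no separate result.

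The opposite arms of the hairpins have seeds of their own, and the counts do not show which arm the reads came from. In capitals, bases 2 to 8 of these arms are as follows.
mmu-miR-208a-5p: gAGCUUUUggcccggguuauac
mmu-miR-208b-5p: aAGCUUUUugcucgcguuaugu
mmu-miR-499-3p: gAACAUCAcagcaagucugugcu
The miR-208a-5p and miR-208b-5p seeds are identical, and miR-6415 shares them among the 1738 mature sequences. No other mature sequence has bases 2 to 8 of miR-499-3p, and miR-448-5p shares bases 2 to 7. In the RNAfold prediction the minimum free energy was -42.5 kcal/mol for the Mir499 hairpin, -37.6 for Mir208a and -32.2 for Mir208b.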
